A study of Mus musculus with 8 samples.

Results

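Cathepsins are proteases of endosomes and lysosomes that cut proteins taken up by the cell or delivered by autophagy. Most are made as inactive proenzymes, carried to the lysosome by mannose 6-phosphate receptors and activated at acid pH, and the cysteine cathepsins are held in check by cystatins. In bone, cathepsin K is known as the enzyme with which osteoclasts dissolve collagen, while cathepsin S and cathepsin L trim the invariant chain of MHC class II in antigen-presenting cells and thymus. The genes Ctsa, Ctsb, Ctsc, Ctsd, Ctsf, Ctsh, Ctsk, Ctsl, Ctss and Ctsz were chosen by name, 10 of 47643 named genes in the expression table. Ctsa encodes a serine carboxypeptidase, Ctsd an aspartic protease, and the other 8 encode cysteine proteases. Each symbol had 1 entry in the table, and all 10 genes passed the filter on low counts.

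The study deleted the m6A methyltransferase gene Mettl3 in mesenchymal stem cells (MSCs) of bone marrow from C57BL/6 mice and compared their RNA. RNA-seq was available for 2 libraries labelled WT, whose label gives the genotype as wild type and which in the study are Mettl3fl/fl, and 2 libraries labelled cKO, Prx1-Cre;Mettl3fl/fl. The floxed alleles are thus shared by both groups as the study names them, and Prx1-Cre, active in limb bud mesenchyme and its progeny, is the difference. MeRIP-Seq, in which fragments of RNA with N6-methyladenosine (m6A) are pulled down by an antibody and sequenced, was done on wild type cells alone (2 immunoprecipitates and 2 inputs) and gave 1 list of 10160 peaks. All labels give 2 days in osteogenic medium, which held dexamethasone (100 nM), β-glycerophosphate (5 mM) and ascorbic acid (50 µg/ml). The ages of the mice and the number of animals behind a library are not given in the sources used here, so the p-values measure the spread between these libraries, which may be technical.

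The RNA-seq libraries held 23948200 to 34069223 counts. The targeted gene Mettl3 had 17.6 and 16.9 counts per 1000000 mapped to genes (CPM) in the libraries labelled WT and 17.5 and 16.3 CPM in those labelled cKO, a log2 fold change of −0.03 (edgeR, adjusted p = 0.824). A count over the whole gene does not show whether the floxed exons were missing, so the labels could not be checked with it, and every direction below rests on the labels. The pair labelled WT was far less alike than the pair labelled cKO (biological coefficient of variation 12.3% against 1.90%), so results with a library left out are given for the cathepsins. Macrophage markers were abundant in these MSC cultures. Lyz2, lysozyme of myeloid cells, stood at 14418 to 21709 transcripts per 1000000 (TPM), Csf1r, the receptor of macrophage colony-stimulating factor, at 477 to 540 TPM, and the pan-leukocyte gene Ptprc at 57.8 to 85.2 TPM. The limb mesenchyme gene Prrx1 reached 37.9 to 88.5 TPM, and Lepr, a marker of marrow stromal cells, did not exceed 0.60 TPM.

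The deposited m6A list held 7 peaks with their summit inside a cathepsin gene, in 6 of the 10 genes. The windows printed here show the sequence under 5 of these peaks, written 5′ to 3′ on the gene's strand of mm9, with the motif GGAC in capitals. GGAC is the most frequent form of the sequence in which Mettl3 places m6A, and the match closest to each summit is shown.
Ctsb, chr14:63761538-63761567, plus strand: acacttcacgagaGGACaaatgccacctct
Ctsd, chr7:149561993-149562022, minus strand: ggaaggagcaagaGGACagaagcaaaacta
Ctsz, chr2:174253240-174253269, minus strand: aGGACcagagtgtGGACtgcatcccgagag
Ctsa, chr2:164659474-164659503, plus strand: aagggatctggggGGACtggtaaacaaaca
Ctss, chr3:95330771-95330800, plus strand: ctcctgctgccagGGACatctttggagtga
The 2 peaks of Ctsc held no GGAC on the gene's strand, and the base at their summit is in capitals instead.
Ctsc, first peak, chr7:95437296-95437324, plus strand: gtttgcatgtaaaaTgcagaggagtcctg
Ctsc, second peak, chr7:95458281-95458309, plus strand: gaatactggattatAaagaacagctgggg

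Ctsd, Ctsb and Ctss, which encode cathepsins D, B and S, supplied most of the cathepsin transcripts in every library. TPM corrects for gene length, so levels of different genes are compared on that scale. Ctsd had 5459 and 3871 TPM in the libraries labelled WT and 5301 and 5370 TPM in those labelled cKO, and by mean TPM only 13 genes of the table stood above it. Its second WT library was the lowest of the 4, and the first WT library was the highest, so the groups overlapped. Ctsb followed with 2544, 1875, 2712 and 2734 TPM in the same order of libraries, and the second WT library was again the lowest. Ctss had 1961, 1921, 2275 and 2270 TPM. Ctsb exceeded Ctss in 3 of 4 libraries and lay below it in WT replicate 2, so the order of these neighbours was not separated from the spread.

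Every other neighbouring pair in the order of levels kept separate ranges over the 4 libraries. Ctsz, a carboxypeptidase also called cathepsin X, had 999 to 1121 TPM. Ctsa, the protective protein that keeps neuraminidase 1 and β-galactosidase stable, had 855 to 983 TPM. Ctsl, which encodes cathepsin L, had 543 to 636 TPM. Ctsh, an aminopeptidase, ranged from 465 to 487 TPM. Below these came Ctsc (125 to 173 TPM), the dipeptidyl peptidase that activates granule serine proteases, Ctsk (61.0 to 102 TPM) and Ctsf (42.2 to 49.1 TPM). The gene with the lowest level, Ctsf, ranked 3149 by mean TPM in the table. Added up, the 10 genes made 1.33% and 1.09% of the transcripts in the libraries labelled WT and 1.37% in each of those labelled cKO. Ctsd alone made 35.5% to 41.0% of that sum, while Ctsk and Ctsf each made less than 1% of it.

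**Figure D1:**
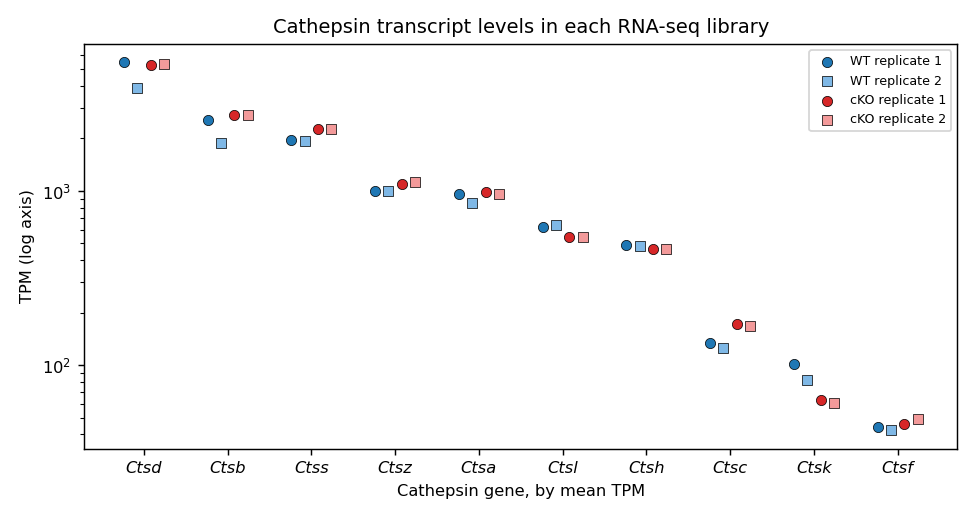
Level of each cathepsin gene in TPM (log axis) in the 4 RNA-seq libraries, with genes ordered by mean TPM. Points are single libraries, blue for WT and red for cKO. Ctsd lies between 3871 and 5459 TPM and Ctsf between 42.2 and 49.1 TPM, and for Ctsd and Ctsb the second WT library lies below the other 3.

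The genotype comparison asks which transcripts differ when Mettl3 is deleted in limb mesenchyme and its progeny. Ctsk and Ctsl were lower and Ctsc was higher in the libraries labelled cKO, and the remaining 7 cathepsin genes missed the threshold (adjusted p under 0.05). Of the 15327 genes tested, 30.5% passed it, 13.7% higher and 16.8% lower, so 3 of 10 lies near the background. The median log2 fold change was 0.04 over the cathepsins and −0.00 over all genes tested. A total of 8 of 10 cathepsin genes had CPM values that did not overlap between the groups, beside 68.9% of all genes tested. Gene levels are given below in CPM of the effective library size, as deposited counts scaled by TMM, and fold changes are those of the edgeR fit.

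Ctsk had the largest difference of the 10 genes. Its level was 97.0 and 81.3 CPM in the libraries labelled WT and 57.0 and 55.0 CPM in those labelled cKO. Both WT libraries lay well above both cKO libraries, and the groups did not overlap. The log2 fold change was −0.67 ± 0.09 (SE; 95% confidence interval −0.90 to −0.45), a level 37.3% lower (edgeR, adjusted p = 0.00335). This was the only cathepsin gene that passed the threshold in each of the 11 alternative fits, with log2 fold changes from −0.80 to −0.53 and adjusted p-values of at most 0.0299 across edgeR, DESeq2 and limma.

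Ctsl had 810 and 855 CPM in the libraries labelled WT and 673 and 675 CPM in those labelled cKO. The groups were apart by more than the spread within either pair, and the log2 fold change was −0.30 ± 0.06 (SE; 95% confidence interval −0.45 to −0.16; edgeR, adjusted p = 0.0110). Ctsc moved the other way, from 202 and 187 CPM in WT to 243 and 236 CPM in cKO. Its log2 fold change was 0.30 ± 0.06 (SE; 95% confidence interval 0.14 to 0.45; edgeR, adjusted p = 0.0168). The calls of Ctsl and Ctsc were lost when either cKO library was left out, although their fold changes kept their direction. Without cKO replicate 1 the adjusted p was 0.232 for Ctsl and 0.233 for Ctsc, and without cKO replicate 2 it was 0.221 and 0.169 (edgeR, 3 libraries, the lone cKO library being assumed to vary like the WT pair).

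Ctsh missed the threshold. It had 290 and 320 CPM in the libraries labelled WT and 267 and 268 CPM in those labelled cKO, with a log2 fold change of −0.19 ± 0.07 (SE; edgeR, adjusted p = 0.0849). Ctss, which encodes cathepsin S of antigen-presenting cells, had 1629 and 1655 CPM in WT against 1797 and 1790 CPM in cKO. The groups did not overlap, but the difference of 0.13 ± 0.05 on the log2 scale did not pass (edgeR, adjusted p = 0.127), and its 95% confidence interval reached from −0.00 to 0.26. On the chromosome Ctss is the neighbour of Ctsk, 17423 bases downstream on chromosome 3 of mm9 and on the same strand, and the adjacent genes had differences of opposite sign.

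Ctsb and Ctsd, the most abundant members by counts, differed more between the WT libraries than between the groups. Ctsb had 8778 and 6583 CPM in WT, a ratio of 1.33 within the pair, and 8833 and 8867 CPM in cKO. Its log2 fold change of 0.20 had a 95% confidence interval from −0.10 to 0.51 (edgeR, adjusted p = 0.274). Ctsd had 7792 and 5669 CPM in WT, a ratio of 1.37, and 7162 and 7234 CPM in cKO, with a log2 fold change of 0.10 (95% confidence interval −0.24 to 0.43; edgeR, adjusted p = 0.642). Ctsd was called in opposite directions when a WT library was left out, higher without WT replicate 1 (0.35) and lower without WT replicate 2 (−0.12; edgeR, adjusted p = 6.26e-40). For Ctsb the same fits gave 0.43, which passed, and 0.01, which did not (edgeR, adjusted p = 0.357 without WT replicate 2).

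Leaving out a WT library takes the spread from the closely matched cKO pair and assumes that the lone WT library varies as little. More genes of the whole table were also called in these fits than with all 4 libraries. Such a call is therefore not particular to the cathepsins, and for the genes that follow the fold changes alone are given. Without WT replicate 1 and without WT replicate 2, the log2 fold changes of Ctsh were −0.25 and −0.12. In the same order they were 0.12 and 0.14 for Ctss and −0.06 and −0.14 for Ctsa. For Ctsz they were 0.03 and 0.07, and for Ctsf 0.06 and 0.02.

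Ctsa, Ctsz and Ctsf had differences of about 0.10 or less on the log2 scale. Ctsa had 1121 and 1068 CPM in the libraries labelled WT and 1023 and 1019 CPM in those labelled cKO, a log2 fold change of −0.10 (95% confidence interval −0.24 to 0.04; edgeR, adjusted p = 0.235). On the TPM scale its mean was 909 ± 77.2 in WT and 972 ± 15.0 TPM in cKO (SD, n = 2 libraries each). With limma on log2(TPM + 0.1) its log2 fold change was 0.10, equal to the median of all genes on that scale, 0.10. Ctsz had 898 and 928 CPM against 929 and 954 CPM, and the highest WT value all but met the lowest cKO value (edgeR, adjusted p = 0.603). Ctsf had 57.9, 56.9, 56.8 and 60.8 CPM in the same order, with overlapping groups (edgeR, adjusted p = 0.733). The 95% confidence intervals of these log2 fold changes reached at most 0.24 from 0.

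**Figure D2:**
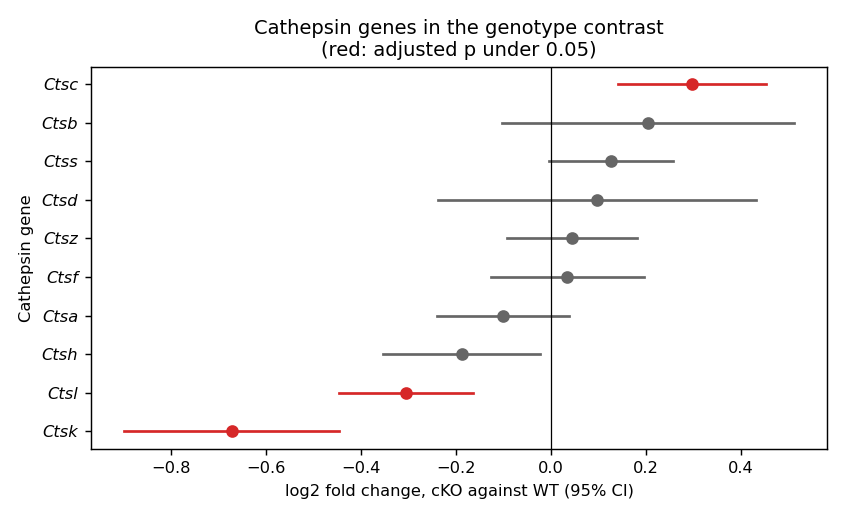
log2 fold change of each cathepsin gene, cKO against WT, from the edgeR fit to 2 libraries per group. Points are estimates, lines are 95% confidence intervals, and red marks an adjusted p under 0.05. Ctsk (−0.67) and Ctsl (−0.30) lie to the left of 0 and Ctsc (0.30) to the right, and the intervals of Ctsb and Ctsd are the widest.

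**Figure D3:**
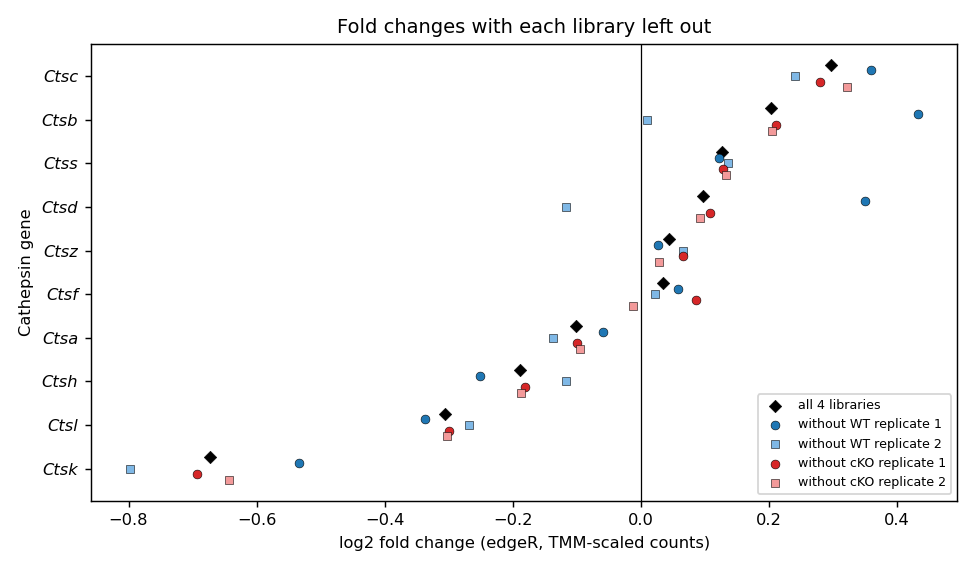
log2 fold change of each cathepsin gene with all 4 libraries (black) and with each library left out in turn (blue for a WT library, red for a cKO library). Ctsk stays between −0.80 and −0.53, whereas Ctsd moves from −0.12 to 0.35 with the WT library that is left out.

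Because cathepsins are shared between cell types, other markers are given beside these results. In a bulk sample, fewer cells of a type and less RNA per cell cannot be told apart. The summed level of 19 macrophage markers was 29730 and 33930 TPM in the libraries labelled WT and 40393 and 40678 TPM in those labelled cKO. On the TPM scale the median log2 fold change of all genes tested was itself 0.10 (limma on log2(TPM + 0.1)). This shift touches all TPM values that are compared between the groups. Of the 19, 9 were called, each of them higher (edgeR; median log2 fold change 0.24). Over all genes tested 13.7% were called higher and 16.8% lower, the background for this list and those below. Lyz2 made up much of the summed level of the macrophage markers and was not called (edgeR, adjusted p = 0.342). Without it, a sum taken after the values were seen, the levels were 15312 and 13813 TPM in WT and 18827 and 18968 TPM in cKO. Most of the 9 calls were lost with either cKO library left out in turn, while the median log2 fold change of the 19 markers was 0.23 without cKO replicate 1 and 0.25 without cKO replicate 2. With either WT library left out more were called, some of them lower. The number of calls over all genes moved the same way, but a smaller share of them was lost without a cKO library. Ctsc, called higher, and Ctss, not called, had their higher values in the same libraries as this sum, whereas Ctsk and Ctsl had their lower values there. Of these markers Csf1r had a log2 fold change of 0.01 and Adgre1 (F4/80) one of 0.14, neither of which passed (edgeR, adjusted p = 0.927 and 0.304). In CPM, Ctsd and Ctsb were lower in WT replicate 2 than in WT replicate 1, and so were 11 of the 19 markers. Of the lysosomal lists below, so were 27 of 32 other hydrolases, 21 of 27 membrane genes, 9 of 12 sorting genes and 5 of 5 cofactors. It held for 6 of the 10 cathepsins and 1 of 4 MiT factors, and the share over all genes was not counted. The summed level of the macrophage markers was higher in WT replicate 2 with Lyz2 and lower without it. The part of these markers in the cathepsin results was not tested.

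Among 10 osteoclast markers, 5 were tested. Several others were at or near 0 (named after their values were seen). Calcr, the calcitonin receptor, had 0 counts in each library, Dcstamp, needed for cell fusion, had at most 1, and Mmp9 had at most 6. Acp5, which encodes tartrate-resistant acid phosphatase, had 12.5 and 15.8 TPM in WT and 7.56 and 7.96 TPM in cKO, a log2 fold change of −0.97 (edgeR, adjusted p = 0.00628), in the same direction as Ctsk. Nfatc1, a transcription factor of osteoclast formation, was also lower (−0.37; edgeR, adjusted p = 0.00728), while Itgb3, an integrin of osteoclasts, was higher (0.96; edgeR, adjusted p = 0.0184), and the other 2 markers tested did not pass. Without either cKO library in turn, Acp5 alone of the 3 kept its call. Of 12 MSC markers, 4 were called higher and 6 lower, so the list did not move one way. The collagen genes Col1a1 and Col1a2 were lower (−0.62 and −1.14; edgeR, adjusted p = 0.000584 and 6.96e-05), and Prrx1 was higher (1.05; edgeR, adjusted p = 0.00015). The largest changes of the list were in the surface proteins Thy1 (4.59) and Nt5e (−2.35), each called in all 11 alternative fits. The part of the osteoclast and MSC markers in the result for Ctsk was not tested. The ratio of Ctsk to Ctss was 0.0519 and 0.0430 in WT and 0.0277 and 0.0269 in cKO, on the TPM scale. Relative to Acp5, Ctsk stood at 8.13 and 5.21 in WT and 8.33 and 7.66 in cKO, so the groups overlapped. Ctsd relative to the macrophage marker Cd68 overlapped too, at 7.14 and 7.11 in WT and 7.19 and 7.12 in cKO. Ctss relative to Csf1r was higher in both cKO libraries than in either WT library.

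A list of 11 genes for cystatins and other protease inhibitors was examined, of which 6 were tested. Cst3, which encodes the secreted inhibitor cystatin C, was lower in the libraries labelled cKO, at 2734 and 2787 TPM against 3890 and 4597 TPM in WT (log2 fold change −0.73; edgeR, adjusted p = 0.0040), and it passed in all 11 alternative fits. Cstb, the intracellular inhibitor stefin B, was lower by a smaller amount (−0.26; edgeR, adjusted p = 0.0191) and lost its call without either cKO library in turn. These were the 2 calls of the list, and Serpinb6a, a serpin, had a log2 fold change of 0.03. The level of Ctsl relative to Cst3 was 0.159 and 0.138 in WT and 0.199 and 0.196 in cKO on the TPM scale. For Ctsc the same ratio was 0.0342 and 0.0271 in WT and 0.0632 and 0.0604 in cKO. Both ratios follow from the fold changes of the single genes and are no separate result. Cst3 had the largest fall of the inhibitors tested, and ratios to the other inhibitors were not computed.

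Lysosomal genes that carry, activate or accompany the cathepsins were counted from lists of 76 genes in all, and all 76 were tested. Of these, 10 were called higher and 6 lower, 21.1% together, beside 30.5% of all genes, with a median log2 fold change of 0.02. More of the 76 were called with either WT library left out in turn and fewer with either cKO library left out, as over all genes. The calls leaned higher without WT replicate 1 and lower without WT replicate 2. For delivery to the lysosome, 2 of 12 genes were called, both higher (Gga3 and Ap1g1), and the mannose 6-phosphate receptors Igf2r and M6pr had log2 fold changes of 0.06 and −0.19 (edgeR, adjusted p = 0.577 and 0.0527). Among 32 other hydrolases, 5 were higher and 4 lower. Lgmn, legumain, which processes several cathepsins to their mature forms, was higher (0.30; edgeR, adjusted p = 0.0398), with the same size of change as Ctsc. The largest fall of this list was in Ids, iduronate 2-sulfatase, named after its value was seen (−0.71; edgeR, adjusted p = 0.000719). Glb1 and Neu1, the enzymes that cathepsin A protects, had log2 fold changes of −0.01 and −0.06 and did not pass.

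Of 27 genes for the lysosomal membrane and its proton pump, 3 were called higher and 1, Cd63, lower (−0.28; edgeR, adjusted p = 0.0132), and Lamp1 had a log2 fold change of −0.01. Of 5 cofactors, Npc2, a cholesterol carrier, was lower (−0.31; edgeR, adjusted p = 0.00972), and the cathepsin D substrate Psap, which encodes the saposin precursor, had 2368 and 1717 TPM in WT and 2850 and 2911 TPM in cKO and did not pass (0.40; edgeR, adjusted p = 0.0647). Without cKO replicate 1 or without cKO replicate 2, all calls in the sorting, membrane and cofactor lists were lost, and 1 hydrolase remained higher and 2 lower. The MiT transcription factors, which activate lysosomal genes, rose for 3 of 4 members, Tfeb (0.23), Tfe3 (0.25) and Mitf (0.48), with edgeR adjusted p-values of 0.0448, 0.0206 and 0.00636. None of the 3 kept its call without cKO replicate 1 or without cKO replicate 2. Of the MHC class II genes, which work with Ctss and Ctsl in antigen presentation, 1 of 7 tested was called, H2-Ab1 (−1.52; edgeR, adjusted p = 0.00111), and the invariant chain gene Cd74 did not exceed 2.94 TPM.

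**Figure D4:**
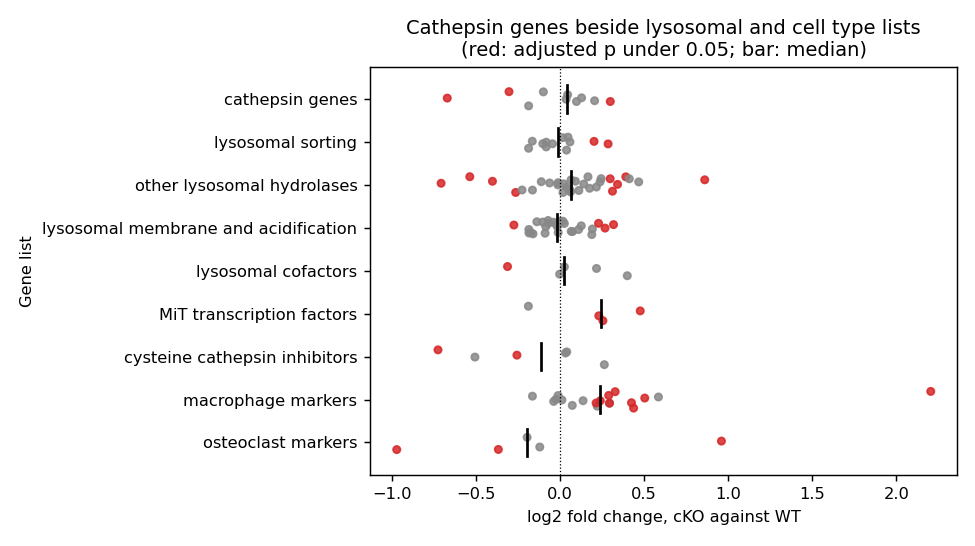
log2 fold changes, cKO against WT, of the cathepsin genes and of 8 other lists. Each point is a gene that was tested, red marks an adjusted p under 0.05, and the bar is the median of the list. The cathepsins lie between −0.67 and 0.30 around a median of 0.04, and the macrophage list has its median at 0.24.

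A further 15 genes of cathepsin name or family, among them the placental cathepsins, were mostly silent, with 10 of them at 3 counts or fewer in each library. Ctso, which encodes cathepsin O, was measured at 16.6 to 24.7 TPM, below the lowest of the 10 genes described here, and did not pass (0.12; edgeR, adjusted p = 0.506). Tinagl1, a matrix protein that resembles cathepsin B but lacks its activity, was higher in the libraries labelled cKO (0.88; edgeR, adjusted p = 0.00422) and passed in all 11 alternative fits.

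The m6A list placed a peak in Ctsa, Ctsb, Ctsc, Ctsd, Ctss and Ctsz and none in Ctsf, Ctsh, Ctsk and Ctsl. A share of 6 of 10 stood beside 42.0% of the tested genes with an entry in the mm9 annotation, and 42.8% of those at or above the TPM of Ctsf. The peaks came from wild type cells and from 1 list for 4 samples, so they carry no replicate error, and no m6A value exists here for the cKO genotype. Summits were placed on the GENCODE vM1 transcript of each gene, and distances were counted along the mature transcript from the stop codon.

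The peaks of Ctsb, Ctsd and Ctsz had their summits in the 3′UTR of the last exon. That of Ctsd (chr7:149561886-149562721) had its summit 465 nt after the stop codon in exon 9 of 9, a pileup of 266 fragments and a fold enrichment of 2.17. Only 7 of the 10160 peaks had a higher pileup, whereas 5.11% had a lower fold enrichment. Ctsb (chr14:63760991-63761758) had its summit 374 nt after the stop codon in exon 10 of 10, with a pileup of 254 and a fold enrichment of 2.31. For Ctsz (chr2:174253121-174253590) the summit lay 134 nt after the stop codon in exon 6 of 6, with the same pileup of 254 and a fold enrichment of 2.40. These peaks held 4, 5 and 7 GGAC in the order Ctsd, Ctsb and Ctsz, including those in the windows printed above, 6 nt, 15 nt and 13 nt from the summit. Of the GGAC in the peak of Ctsd 1 lay in CDS and 1 in an intron, and the same held for Ctsz, while all 5 of Ctsb lay in the 3′UTR. In exons lay 758 of the 836 nt of the Ctsd peak, 690 of 768 nt for Ctsb and 363 of 470 nt for Ctsz. All 3 were among the peaks with the most fragments and the least enrichment over the local background, as the plot of pileup against enrichment shows.

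Ctsc had 2 peaks. The second (chr7:95458144-95458391) lay within coding sequence of exon 7, the last, with its summit 115 nt before the stop codon, a pileup of 113 and a fold enrichment of 2.63. The first (chr7:95437151-95437440) lay in an intron, 7268 nt from the nearest exon of the main transcript, where the annotation has an exon of a retained-intron transcript, and had a pileup of 30 and a fold enrichment of 6.39. Ctsc was thus called higher in cKO and carried 2 peaks, and neither held GGAC. In Ctsa (chr2:164659389-164659598) the summit lay in an intron, 22 nt from the nearest exon and again within an exon of a retained-intron transcript, with 69 nt of the peak in exons, a pileup of 149 and a fold enrichment of 3.21. In Ctss (chr3:95330640-95330845) the summit lay in exon 1 of 8, 4 nt after the start of the coding sequence. This peak began before the annotated start of the gene (95330708), with 138 of its 206 nt in exons and its 1 GGAC in the 5′UTR. It was the weakest of the 7 by −log10 q (7.12), with a pileup of 20 and a fold enrichment of 4.88.

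Of the 7 summits, 3 were in a 3′UTR, 2 in CDS and 2 in an intron, and 2 lay within 200 nt of a stop codon (Ctsz and the second peak of Ctsc). Fold enrichment was below the median of all peaks (4.03) for 5 of 7. With peaks limited to a fold enrichment of at least 3, 3 of the 10 genes had a peak (Ctsa, Ctsc and Ctss), so the count of cathepsin genes with a peak depended on this limit. The transcripts of the genes without a peak also held the motif, with 15 (Ctsf), 7 (Ctsh), 8 (Ctsk) and 13 (Ctsl) GGAC, beside 6 in that of Ctss and 7 in that of Ctsc.

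**Figure D5:**
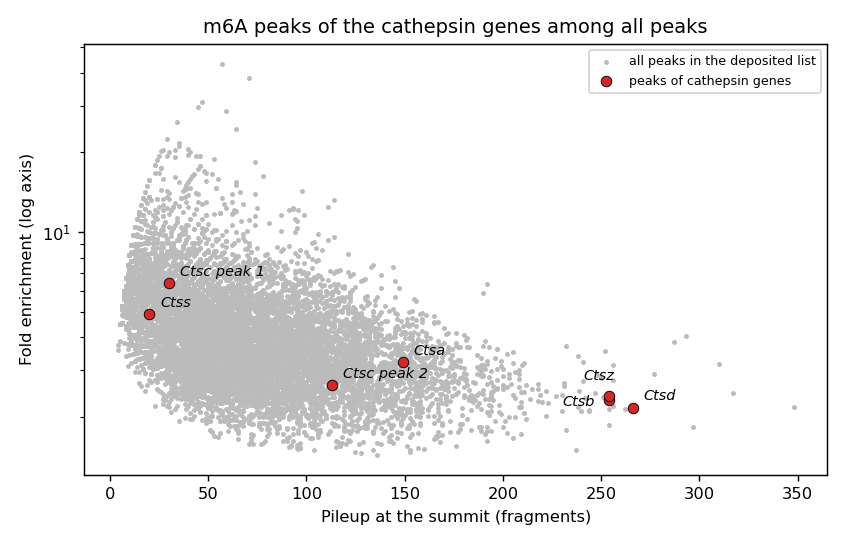
Pileup at the summit (fragments) against fold enrichment (log axis) for all 10160 peaks of the deposited list (grey) and the 7 peaks of cathepsin genes (red). Ctsb, Ctsd and Ctsz lie at 254 to 266 fragments with fold enrichments of 2.17 to 2.40, and Ctss and the first peak of Ctsc at 20 and 30 fragments.

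Beside the genotype comparison, the 4 cathepsin genes without a peak had log2 fold changes of 0.03 (Ctsf), −0.19 (Ctsh), −0.67 (Ctsk) and −0.30 (Ctsl), and the 6 with a peak had log2 fold changes from −0.10 (Ctsa) to 0.30 (Ctsc). Both genes called lower therefore had no peak, and the gene called higher had 2. In the table as a whole, 22.0% of genes with a peak were called higher and 13.4% lower, against 8.86% and 21.1% of genes without one. Peaks were found in other libraries than those of the genotype comparison, and whether the 10 genes differ from the rest in this was not tested.

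Promoter windows, from 250 bases before to 50 bases after the start of transcription, were held for 8 of the 10 genes (RefSeq, GRCm38.p6), Ctsb and Ctsh having none. The E-box CACGTG, which is the core of the sequence bound by MiT factors and reads the same on both strands, was present in windows of Ctsa, Ctsd, Ctsf and Ctsl and in 7.15% of 32851 windows of the same length. The full CLEAR element of 10 bases, of which CACGTG is the centre, was searched as an exact string. That string was in none of the windows of the 8 genes and in 0.326% of all windows. Near matches to it were not counted, so the search does not show whether other forms of the element are present. The motif GAGGAAGT, a site of the myeloid factor PU.1, was found on the strand opposite to the gene in the windows of Ctsc and Ctss and, on either strand, in 3.20% of all windows. Of the genes called in the genotype comparison, Ctsl had CACGTG, Ctsc had GAGGAAGT, and Ctsk had none of these motifs. The stretches around the matches are printed for genes that carry each motif, with the match in capitals. These letters are matches only, and no factor was measured here.
Ctsd, 98 bases before the start, chr7:142387908-142387937, minus strand: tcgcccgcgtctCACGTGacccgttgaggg
Ctsl, 236 bases before the start, chr13:64370739-64370768, minus strand: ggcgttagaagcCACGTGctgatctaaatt
Ctsc, 151 bases before the start, chr7:88277923-88277952, plus strand: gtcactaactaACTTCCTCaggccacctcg
Ctss, 2 bases before the start, chr3:95526773-95526802, plus strand: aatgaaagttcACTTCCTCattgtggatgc

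Neighbouring genes could share reads with some cathepsins, since the strand setting of the counting is not given in the sources used here. The exons of Ctsb overlapped those of Fdft1 on the other strand by 769 nt, and those of Ctsa overlapped Neurl2 by 324 nt and Pltp by 495 nt, also on the other strand. Ctsd shared 163 nt of exon with 6330512M04Rik on the same strand and Ctsz 10 nt with Th1l. The overlapping genes had mean levels of 2.71 to 46.3 TPM, far below Ctsb, Ctsa, Ctsd and Ctsz. Ctsk, Ctsl, Ctsf and Ctsh had no overlapping gene in this annotation. The deposited counts of Ctsa and Ctsb held fractions and were rounded for the fit.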

How the data were processed

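RNA-seq of 4 libraries (2 labelled WT, 2 labelled cKO) and 1 MeRIP-Seq peak list were used, with groups taken from the sample labels. The 10 genes, the other gene lists and the tests were chosen with earlier results of these data known. Per the submitters' processing notes, the tools were HISAT2 2.0.4, TopHat and MACS2. For each gene the authors deposited an estimated count, not normalized, and a normalized value that adds up to 1000000 in each library and was treated as TPM. The peak list that the authors deposited holds, for each peak, a fold enrichment (a ratio to the local background), a pileup signal, a q-value as −log10 and a p-value, which was not used. The list is for all MeRIP-Seq samples together, its depth is unknown, and whether replicates were pooled is not given in the sources used here. Columns with the authors' own comparisons were not used.

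Entries without a gene name (89 of 47732, 0.110% to 0.125% of the counts) entered neither library sizes nor tests. Rounded counts were filtered (filterByExpr) and TMM-scaled. The two-sided quasi-likelihood test of edgeR 4.0.16 was used, with Benjamini-Hochberg adjustment over 15327 genes and a threshold of 0.05. CPM used TMM-scaled library sizes. With 2 libraries against 2, an exact permutation test cannot go below p = 0.333 and was not used. The fit and the peak placement were tested on simulated data. The pair labelled cKO differed by 1.82 times the sampling expectation and the pair labelled WT by 32.6 times. All 4 libraries were counted as separate samples, although the small spread of the cKO pair does not show that its libraries are independent. Peaks were placed by summit on mm9 with GENCODE vM1, using a CCDS transcript per gene where one was tagged, and 35 peaks lay outside the sequences used. Where a symbol had several entries, the one with the most counts was used.

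Alternatives were a block on the replicate number, no filter on low counts, the size factors of DESeq2, the DESeq2 test (1.42.0), limma 3.58.1 with log2(TPM + 1) or log2(TPM + 0.1), each library left out, and both cKO libraries summed, and for peaks other limits and windows. The text names all 10 genes, Mettl3, the 2 genes of highest mean CPM in lists that are described, and genes set in the design as partners or markers. Genes named for their change within a list (Ids, Gga3, Ap1g1, Npc2, H2-Ab1, Itgb3), Thy1, Nt5e, Lepr, Calcr, Dcstamp and Mmp9 were chosen after their values were seen.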

Additional observations from a re-analysis of the deposited data

How the results depend on the processing

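With 2 libraries per group, calls depended on the library left out. The number of genes called over all genes (4677) ranged from 1867 to 8750 and the number of cathepsin genes called (3) from 1 to 8 when 1 library at a time was dropped, the lowest counts without a cKO library and the highest without a WT library. Summing the cKO libraries gave 2012 genes, of which 1 was a cathepsin (Ctsk). The replicate number as a block gave 4881 genes and the same number of cathepsins, 3. The deviations of same-numbered libraries had a correlation of 0.03. Because the pair labelled cKO hardly differed, this value cannot show whether same-numbered libraries share more than a number. Of 110 values for single cathepsin genes under alternatives, 90 kept direction and side of the threshold, 6 lost the call, 10 gained it and 4 changed sign, of which 1 (Ctsd without WT replicate 2) also gained a call, 11 in all. The sign changes were Ctsa with limma on TPM (0.10 with either pseudocount, where the median of all genes was 0.10 with 0.1 and 0.08 with 1, against −0.00 for counts) and, with 1 library dropped, Ctsd without WT replicate 2 (range −0.12 to 0.35) and Ctsf without cKO replicate 2 (range −0.012 to 0.087). Without the filter on low counts, Ctsb also passed (edgeR, adjusted p = 0.00025). The number of cathepsin genes with a peak was 3 of 10 at a fold enrichment of at least 3, and 0 of the 7 summits lay within 100 nt of a stop codon. Neither the animals behind the libraries nor the depth of the peak list is known.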
